A study of Mus musculus with 13 samples.

Results

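Skeletal muscle miRNAs were examined in melanomas grown in the flanks of male C57BL/6 mice. The group consists of mmu-miR-1a-3p, mmu-miR-133a-3p, mmu-miR-133b-3p and mmu-miR-206-3p, 4 miRNAs that make up 0.371% of the mouse miRNAs on the arrays and were chosen by name as miRNAs known from skeletal muscle. The tumors came from B78H1 cells, an amelanotic melanoma line derived from B16, injected under the skin. In the curcumin group (n = 7) the mice received chow with 4% curcumin from 14 days before the injection, and in the control group (n = 6) they received standard chow. All mice were of the same strain and sex and carried the same cell line, and tumor growth was followed for 28 days. RNA of each of the 13 tumors was hybridized to 1 array.

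miRNAs are short RNAs that pair with messenger RNAs, mainly through the seed (bases 2 to 8), and lower the output of these messenger RNAs. miR-1 and miR-133 are made from shared precursor transcripts in skeletal and heart muscle, where miR-1 is known to promote differentiation and miR-133 to act on the proliferation of myoblasts. miR-206 has the same seed as miR-1 and is largely restricted to skeletal muscle, where it is known for its role in differentiating and regenerating fibers. miR-133b shares its precursor region with miR-206, while its mature form is nearly identical to miR-133a. Probes for miR-133a and miR-133b may therefore bind part of each other's target, and their signals are not independent. For miR-1a and miR-206, which share the seed, such binding was not tested.

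Of the 4 members, 2 were matched in the RefSeq miRNA table (assembly GRCm38.p6), and these are shown because they are neighbors in the genome but differed between tumors in the arrays. The capitals mark the seed in the mature forms:
mmu-miR-206-3p: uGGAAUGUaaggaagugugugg
mmu-miR-133b-3p: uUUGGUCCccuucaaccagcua
The mature forms lie at chr1:20679055-20679076 and chr1:20682834-20682855 on the plus strand. They have the same base at 4 of 22 positions and different seeds.

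The hairpins of both genes are given with the measured 3p strand in capitals:
Mir206: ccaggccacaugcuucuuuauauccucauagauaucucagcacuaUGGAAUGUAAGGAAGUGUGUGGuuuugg
Mir133b: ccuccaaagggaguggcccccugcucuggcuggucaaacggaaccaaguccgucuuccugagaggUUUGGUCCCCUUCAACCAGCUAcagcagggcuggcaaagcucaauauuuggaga
Mir206 lies at chr1:20679010-20679082 and Mir133b at chr1:20682769-20682887, with 3686 bases between the hairpins. Both lie inside Lincmd1, the gene of a long non-coding RNA known from muscle differentiation.

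Of the 2 slides used, the first carried RNA of 3 curcumin and 2 control tumors and the second that of 4 and 4. On each slide the control arrays formed one line and the curcumin arrays the other, so that line and diet cannot be told apart. The summed signal of an array was between 114095 and 281508 in arbitrary units, and 272 to 412 miRNAs were called detected by the scanner software. The lowest values of both belonged to curcumin tumor 5. Levels are given as log2 of the quantile-normalized signal, a scale on which 1 unit is a doubling and on which values at or below 0 before the log2 step were set to a floor of −7.03. Levels of different miRNAs are not compared, because each probe binds with its own strength.

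miR-1a, miR-133a and miR-133b were either detected together in a tumor or not at all. All 3 were detected in 10 of the 13 tumors and none of the 3 in curcumin tumor 7, control tumor 1 and control tumor 4. No other miRNA on the arrays had this set of detection calls (0 others), and 16 miRNAs were detected on exactly 10 arrays. mmu-miR-206-3p was detected in all 13 tumors, including those without the other members. The presence of the muscle miRNAs was thus not bound to 1 diet. Detection of miR-1a, miR-133a and miR-133b was 6 of 7 in curcumin tumors and 4 of 6 in control tumors, a difference that could not be told from sampling (Fisher's exact test, two-sided, p = 0.559). In this test 0 of the miRNAs on the arrays (0.0%) had an adjusted p below the threshold of 0.05, and 22 (2.04%) had an unadjusted p below it. In tissue samples of this kind, fewer muscle cells and less of a miRNA per cell cannot be told apart.

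The log2 level of mmu-miR-1a-3p in curcumin tumors 1 to 7 was 7.91, 7.48, 7.91, 8.01, 7.99, 7.37 and −7.03. In control tumors 1 to 6 it was −7.03, 6.57, 5.93, −7.03, 4.86 and 7.64. The 6 curcumin tumors in which it was detected lay between 7.37 and 8.01, and the 4 such controls between 4.86 and 7.64. Both groups held tumors at the floor, and the groups overlapped.

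For mmu-miR-133a-3p the log2 levels in curcumin tumors 1 to 7 were 6.84, 6.72, 7.62, 7.54, 7.84, 6.66 and −0.20. In control tumors 1 to 6 they were 0.69, 5.63, 5.68, 0.96, 4.37 and 6.97. The same tumors stood low as for miR-1a, and control tumor 6 was the highest control for both. For mmu-miR-133b-3p, whose gene lies beside that of miR-206, the levels were 7.64, 7.37, 8.22, 8.22, 8.71, 7.45 and 0.76 in curcumin tumors 1 to 7. In control tumors 1 to 6 they were 0.82, 6.50, 6.50, 0.65, 5.25 and 7.88. Curcumin tumor 5 had the highest normalized level of all for both miR-133 forms. Before normalization curcumin tumor 4 was highest, with summed signals of 238.5 for miR-133a and 394.9 for miR-133b, against 106.4 and 175.5 in tumor 5. Control tumors 1 and 4 stood lowest of the controls for both forms.

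mmu-miR-206-3p varied over a narrower range. Its log2 levels were 6.42, 6.89, 6.42, 6.63, 5.93, 6.31 and 4.73 in curcumin tumors 1 to 7. In control tumors 1 to 6 they were 4.32, 5.57, 4.24, 4.60, 5.42 and 5.53. In 6 of 7 curcumin tumors the normalized level was above that of every control, whereas curcumin tumor 7, which lacked the other members, lay among the controls. This order depends on the normalization. In the summed signals before it, control tumor 5 (77.6) was above all curcumin tumors except tumors 2 (171.0) and 4 (117.1). The lowest level of all was in control tumor 3, where the other members were detected.

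**Figure D1:**
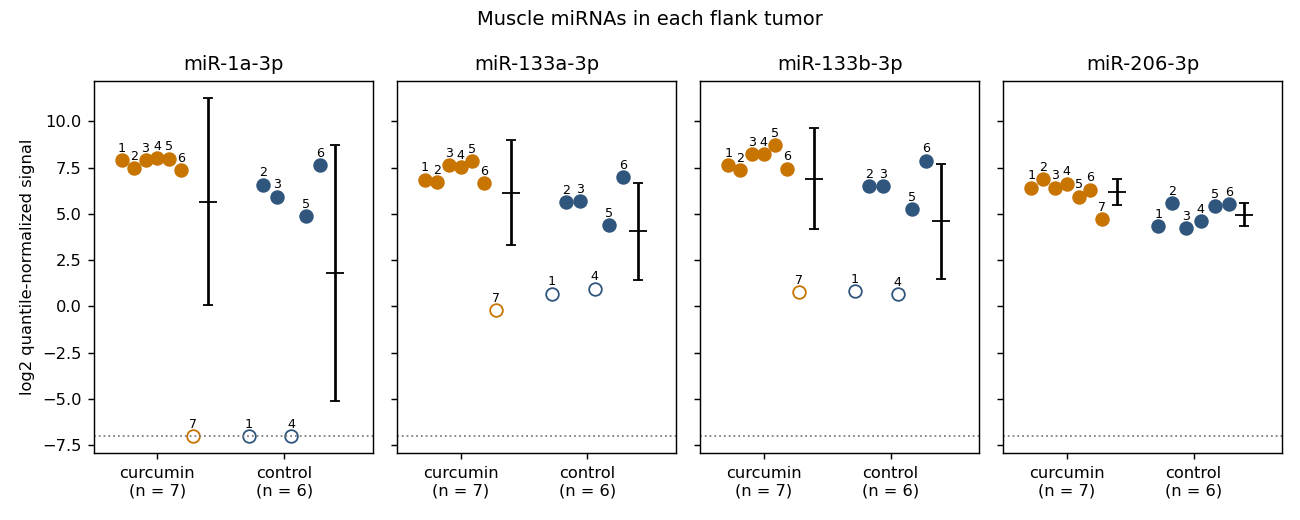
Level of each muscle miRNA (y axis, log2 of the quantile-normalized signal) in the 7 curcumin and 6 control tumors (x axis, numbers are tumor numbers). Filled circles are tumors with the miRNA detected, open circles are those without, black bars are mean and SD, and the dotted line is the floor of −7.03. Curcumin tumor 7 and control tumors 1 and 4 are open in the first 3 panels, and no tumor is open for miR-206-3p.

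The weakest array did not belong to a tumor without miR-1a, miR-133a and miR-133b, although that of control tumor 1 was among the weaker ones. Curcumin tumor 7 had a summed signal of 218734 with 369 detected miRNAs, control tumor 4 had 188310 with 348, and control tumor 1 had 151291 with 313. Control tumor 1 had the fewest detected miRNAs of the controls. Curcumin tumor 5, which had the weakest array, showed all 4 members, as did control tumor 3 with 150272 and 325.

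Each member was measured by 2 probes of 20 spots each, and the probes were compared because a missing miRNA should be missing from both. The stronger probe of miR-1a gave signals of 110.9 to 336.2 in the 6 curcumin tumors with the miRNA and 43.2 to 149.6 in the 4 controls. In curcumin tumor 7 and control tumors 1 and 4 its signals were 0.12, −1.21 and −1.33, and none of the spots of either probe was well above background (0%). Its weaker probe gave 3.01 to 34.4 where the miRNA was detected, and in control tumors 3 and 5 it had 0% of its spots well above background.

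The stronger probe of miR-133b gave 136.0 to 332.5 in these curcumin tumors and 55.6 to 147.4 in these controls, against 1.71, 0.27 and 0.62 in curcumin tumor 7 and control tumors 1 and 4. For miR-133a, the stronger probe gave 79.2 to 198.9 and 33.2 to 84.3, against 0.82, 0.20 and 0.75. In the tumors without these miRNAs no spot of their probes was well above background, while elsewhere 90.0% to 100% of the spots of both miR-133a probes and 100% of those of the miR-133b probes were. The probes of miR-206 gave 8.77 to 57.2 and 18.8 to 113.9 in curcumin tumors and 5.43 to 34.5 and 8.64 to 43.1 in controls. In every tumor at least 40.0% of the spots of the first probe and 95.0% of those of the second were well above background.

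**Figure D2:**
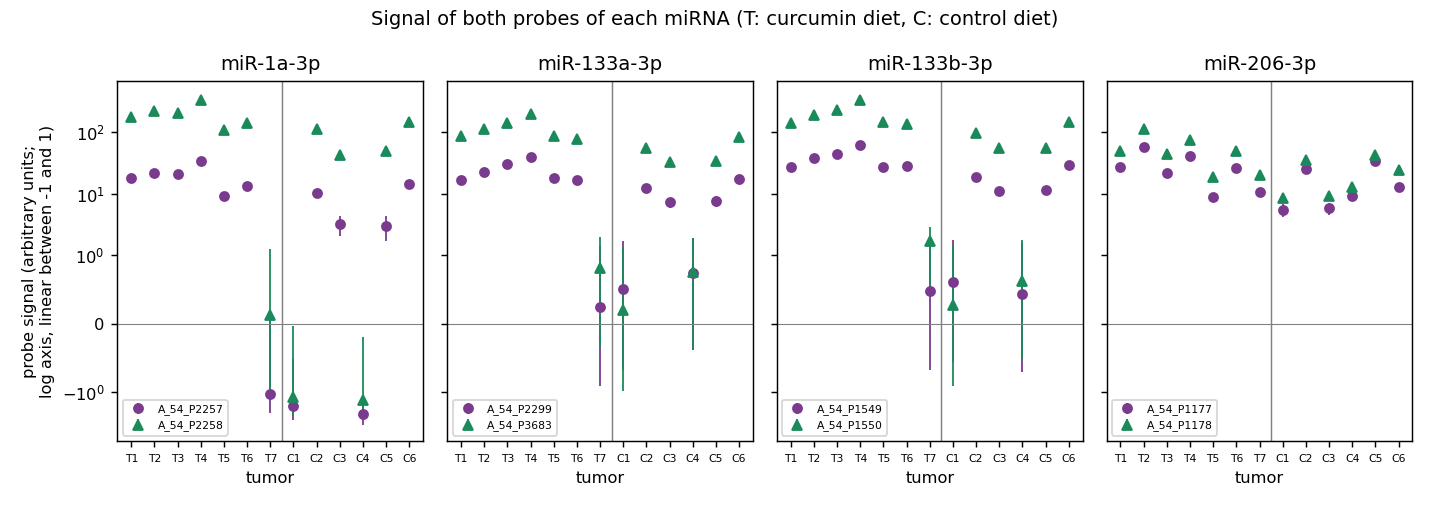
Background-subtracted signal of both probes of each miRNA (y axis, arbitrary units, logarithmic above 1 and linear between −1 and 1) in curcumin tumors T1 to T7 and control tumors C1 to C6 (x axis). Symbols are the 2 probes and bars the error given by the scanner software. In T7, C1 and C4 both probes of miR-1a, miR-133a and miR-133b are near 0, whereas both probes of miR-206 are above 5 in all tumors.

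Whether the diets differed in these miRNAs was tested with limma, which fits each miRNA and steadies its variance with that of the rest, and p-values were adjusted over all mouse miRNAs of the arrays. Of these, 15.8% had an adjusted p below the threshold, with 8.34% higher and 7.51% lower in curcumin tumors. Of the 4 members 1 passed, mmu-miR-206-3p. It averaged 6.19 ± 0.71 (SD, n = 7) with curcumin against 4.95 ± 0.63 (SD, n = 6) without it, a log2 difference of 1.24 (standard error 0.37, adjusted p = 0.0423 in limma) or 2.37-fold. The groups overlapped, as did those of the other members. Of the 243 miRNAs detected on all arrays, 11.9% had groups that did not overlap and 20.2% were higher in curcumin tumors by limma.

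The call for mmu-miR-206-3p was close to the threshold. When all 1716 ways to divide the tumors into 7 and 6 were enumerated (exact permutation test), the p was 0.0105, or 0.0622 after adjustment over all miRNAs (13.2% of which passed). With limma the call was lost in 11 of the 13 fits without 1 tumor. It held without curcumin tumor 7, where the difference was 1.49 (adjusted p = 0.00901), and without control tumor 6, where it was 1.36 (adjusted p = 0.0441). In the other fits the adjusted p lay between 0.0504 (without curcumin tumor 5) and 0.0904 (without control tumor 4). On slide 1 alone the difference was 1.63 and on slide 2 alone 0.95, both with curcumin tumors higher and with adjusted p-values of 0.262 and 0.531 in these smaller fits. In the log2 values that the authors deposited it was 1.13 (standard error 0.31, adjusted p = 0.0207 in limma), and after normexp background correction it was 0.57 (standard error 0.21, adjusted p = 0.0801).

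**Figure D3:**
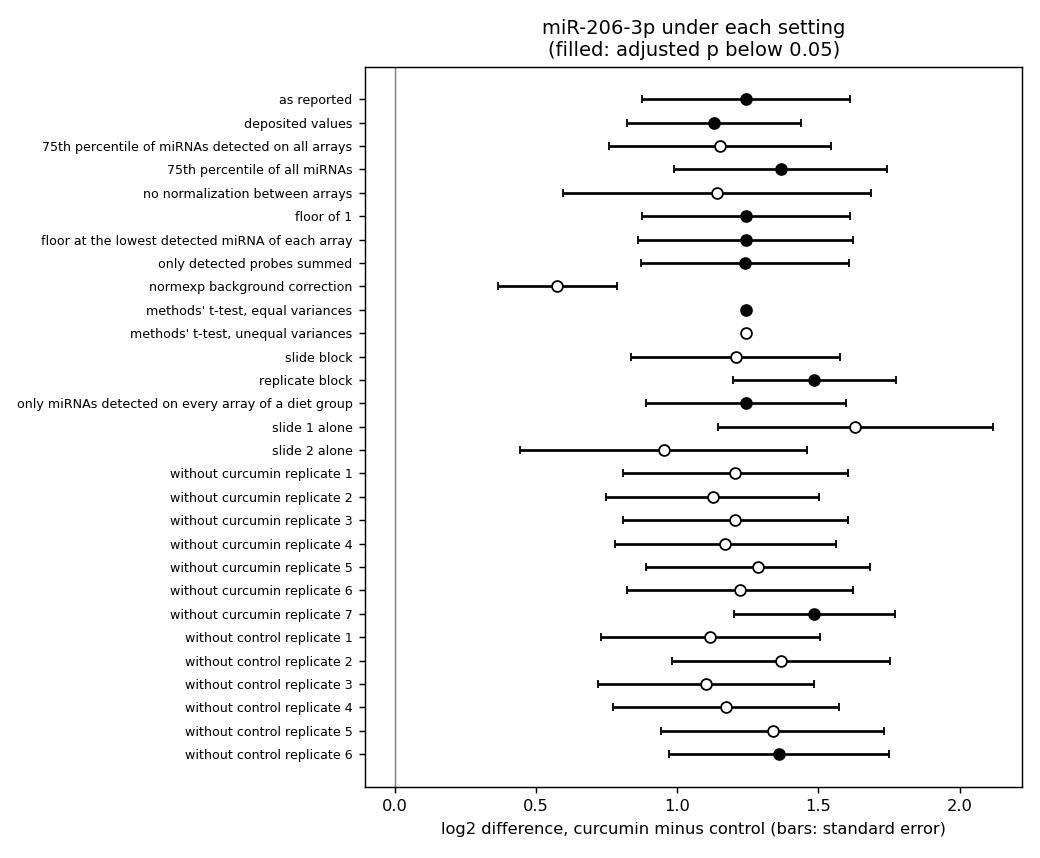
Log2 difference of miR-206-3p between the diets (x axis, curcumin minus control, bars are standard errors where the test gives one) under each setting (y axis), with filled circles for an adjusted p below 0.05. All values lie above 0, between 0.57 and 1.63, and open circles show that 11 of the 13 fits without 1 tumor lost the call.

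The other members had larger mean differences with far larger spread, since each group mixed tumors with and without them. mmu-miR-1a-3p was 5.66 ± 5.60 (SD, n = 7) and 1.82 ± 6.92 (SD, n = 6), and its log2 difference of 3.84 (standard error 3.42, adjusted p = 0.687 in limma) did not pass. This difference depends on the floor and became 2.50 with a floor of 1. mmu-miR-133a-3p differed by 2.09 (standard error 1.51, adjusted p = 0.527) and mmu-miR-133b-3p by 2.31 (standard error 1.60, adjusted p = 0.500). The exact permutation test gave 0.198, 0.191 and 0.181 for the 3 miRNAs before adjustment. The authors' deposited values place the same tumors lowest. For miR-1a they were 1.77 in curcumin tumor 7, 0.69 in control tumor 1 and 0.62 in control tumor 4, against 4.99 to 8.03 elsewhere, because a constant was added to all signals before the log2 step.

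To see whether miR-206 followed the other members, their levels were compared over tumors. As the tumors fell into those with and those without miR-1a and miR-133, correlations were computed over the 10 tumors with all members detected (6 curcumin, 4 control), for 6 pairs of members, with permutation tests. Both diets were pooled and permuted together, so that any difference between the diets enters each correlation and its p. In these tumors miR-1a, miR-133a and miR-133b moved closely together. Pearson's r was 0.996 for miR-133a with miR-133b (permutation p = 1e-05, the smallest the 100000 permutations can give, adjusted 6.0e-05) and Spearman's rho was 0.982. It was 0.960 for miR-1a with miR-133a and 0.957 for miR-1a with miR-133b (permutation p = 7.0e-05 and adjusted 0.00014 for each), with rho of 0.924 and 0.939. Without the 2 tumors farthest from the median r was 0.987, 0.928 and 0.913. On slide 2, which held 6 of these tumors, r was 0.998, 0.985 and 0.982, and slide 1 held too few for a value.

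The correlations of miR-206 with these members were positive, and none passed after adjustment. That with miR-1a lay at the threshold and passed with the deposited values (permutation test, adjusted p = 0.0447), with the 75th percentile over all miRNAs as scale (adjusted p = 0.0270) and in 4 fits without 1 tumor, which were curcumin tumors 2 and 5 and control tumors 5 and 6. Whether these correlations differ from those among miR-1a, miR-133a and miR-133b was not tested. Over the same 10 tumors r was 0.674 with miR-1a (permutation p = 0.0338, adjusted 0.0507, rho = 0.646 with p = 0.0471), 0.573 with miR-133a (p = 0.0857, adjusted 0.103, rho = 0.486 with p = 0.156) and 0.531 with miR-133b (p = 0.117, adjusted 0.117, rho = 0.468 with p = 0.172). Without the 2 tumors farthest from the median of the other miRNA, r was 0.427, 0.607 and 0.662 (exact permutation p = 0.301, 0.115 and 0.0665). On slide 2 alone r was 0.638, 0.571 and 0.550.

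Within the 6 curcumin tumors that had all members, r of the normalized levels was negative but far from the threshold. It was −0.340 with miR-1a, −0.488 with miR-133a and −0.627 with miR-133b (exact permutation p = 0.494, 0.369 and 0.186), with rho of 0.0, −0.319 and −0.515. Whether these values differ from those over all 10 tumors was not tested. Nor was it tested whether r within these tumors stays negative before normalization or under another scaling. In the same tumors miR-133a and miR-133b, whose signals are not independent, still had r = 0.980 (exact permutation p = 0.00556, adjusted 0.0333). Their rho was 0.928 and did not pass after adjustment (exact permutation p = 0.0167, adjusted 0.1). For miR-1a r was 0.807 with miR-133a and 0.808 with miR-133b (exact permutation p = 0.0389 and 0.0556). Neither passed after adjustment (0.111 for each). In the normalized levels, curcumin tumor 5 had the highest miR-133a and miR-133b of all tumors and the lowest miR-206 of these 6. Curcumin tumor 2 had the highest normalized miR-206 and the lowest normalized miR-133b of the 6. The order for miR-133b depends on the normalization. In the summed signals before it, curcumin tumor 4 was highest (394.9, against 175.5 in tumor 5), and tumor 2 (227.4) was above tumor 6 (163.9). The controls with all members were 4 and too few for a value.

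**Figure D4:**
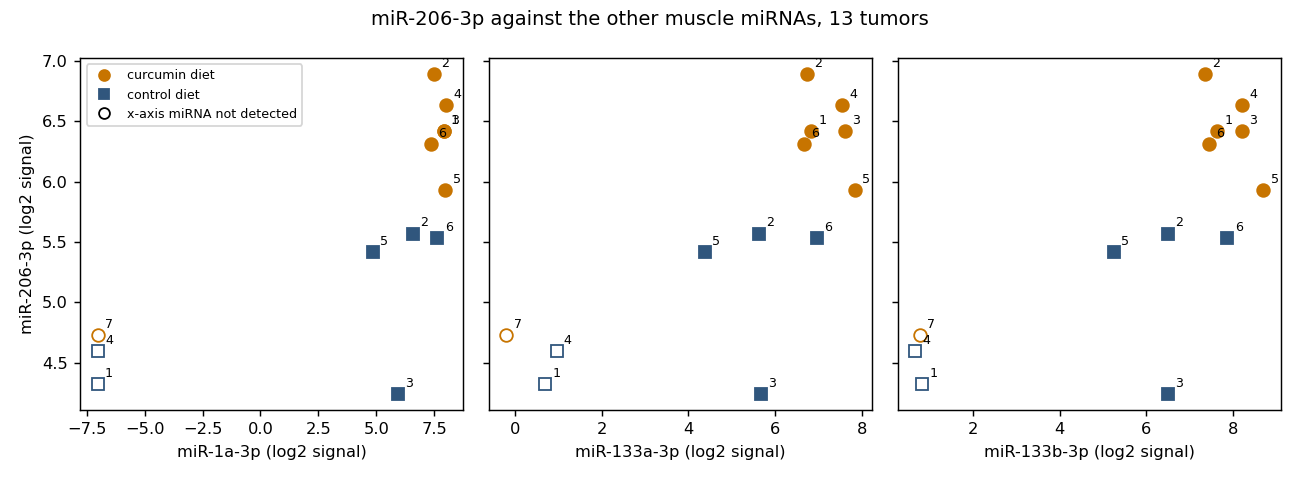
Level of miR-206-3p (y axis, log2 signal) against miR-1a-3p, miR-133a-3p and miR-133b-3p (x axes, log2 signal) in 13 tumors, with orange circles for curcumin and blue squares for control tumors and open symbols where the x-axis miRNA was not detected. The open symbols, curcumin tumor 7 and control tumors 1 and 4, have normalized miR-206 levels of 4.32 to 4.73. Control tumor 3, with the other miRNAs present, is lower at 4.24 on this scale, but not in the summed signals before normalization.

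The question was also put within each tumor, as the log2 level of miR-206 minus that of another member, compared between the diets. Differences between these values show unequal change and do not rank the miRNAs. Against miR-1a the value was lower in curcumin tumors by 2.59, with means of 0.53 ± 4.97 (SD, n = 7) and 3.12 ± 6.54 (SD, n = 6) (difference −2.59, exact permutation p = 0.323). The difference and the spread depend on the floor, and with a floor of 1 the difference was −1.25 (exact permutation p = 0.355). For miR-133a the difference was −0.85 (p = 0.510, exact permutation test) and for miR-133b it was −1.07 (p = 0.434, exact permutation test). After adjustment over the 3 pairs all p were 0.510. A difference between the diet effects of miR-206 and of the others was thus not detectable against this spread.

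The 2 probes of miR-206 did not move by the same amount. The ratio of the second probe's signal to the first's was 1.81, 1.99, 2.00, 1.85, 2.14, 1.90 and 1.91 in curcumin tumors 1 to 7. In control tumors 1 to 6 it was 1.59, 1.40, 1.58, 1.42, 1.25 and 1.88. Only control tumor 6 reached the range of the curcumin tumors. On the log2 scale the ratio was 0.96 ± 0.08 (SD, n = 7) and 0.59 ± 0.20 (SD, n = 6), a difference of 0.36 (exact permutation test, two-sided, p = 0.00175, adjusted 0.0211). The adjustment was over 169 miRNAs with 2 probes that both exceeded 3 times their error on all arrays. This comparison was chosen after the values were seen. Such shifts were common, since 33.1% of the 169 had p below the threshold and 22.5% an adjusted p below it, and by size that of miR-206 ranked 2 among them. The difference was 0.37 on slide 1 and 0.36 on slide 2. Before any normalization the mean log2 difference between the diets was 0.91 for the first probe and 1.28 for the second, so the size of the miR-206 difference depends on the probe.

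**Figure D5:**
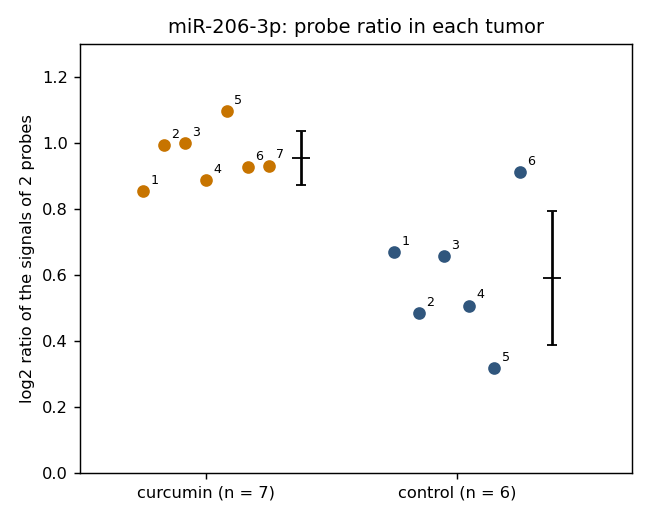
Log2 ratio of the signals of the 2 probes of miR-206-3p (y axis) in each curcumin and control tumor (x axis, numbers are tumor numbers), with mean and SD as black bars. The 7 curcumin tumors lie between 0.85 and 1.10 and 5 of the 6 controls lie below them, between 0.32 and 0.67.

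The opposite strands of the hairpins and related forms were mostly silent. Of 7 such miRNAs, 6 were detected on no array, among them mmu-miR-206-5p, mmu-miR-133b-5p, mmu-miR-1a-1-5p and mmu-miR-1b-3p, and 0 of the 7 passed the limma threshold. The exception was mmu-miR-133a-5p, the other strand of the miR-133a hairpins, which was detected in curcumin tumors 1, 2, 3 and 4 and in no control. Its levels in curcumin tumors 1 to 7 were 1.59, 2.00, 2.59, 2.47, 2.22, 1.15 and −7.03, and in controls it was at −0.57 and 0.86 in tumors 2 and 6 and at the floor in the others. Its log2 difference of 5.35 is set by the floor and did not pass (adjusted p = 0.0909 in limma). The tumors without miR-133a were at the floor for this strand as well, as were control tumors 3 and 5.

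Other miRNAs of striated muscle were detected in few tumors. Of 8 listed, 7 were on the array and 5 of these were detected on no array, among them mmu-miR-208a-3p, mmu-miR-208b-3p and mmu-miR-499-5p, which are encoded in myosin heavy chain genes of heart and slow muscle and were at the floor in all tumors. mmu-miR-208a-5p was detected in 1 tumor of each diet. mmu-miR-499-3p, the opposite strand of miR-499-5p, was detected in control tumors 2 and 5, which also had all 4 members, and in no curcumin tumor. Its difference of −6.50 (standard error 1.81, adjusted p = 0.0349 in limma) passed the threshold and rests on 5 curcumin tumors at the floor, so that no fold is given.

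Of 4 listed smooth muscle miRNAs, mmu-miR-143-3p and mmu-miR-145-5p, known from vessel walls and other smooth muscle, were detected in all 13 tumors, as was miR-206. Their opposite strands mmu-miR-143-5p and mmu-miR-145-3p were detected in 3 tumors and in 0. In curcumin tumor 7 and control tumors 1 and 4 the level of mmu-miR-143-3p was 6.59, 6.31 and 6.15, within or above the range of 5.34 to 6.54 in the other tumors. That of mmu-miR-145-5p was 3.92, 4.19 and 4.08 in these tumors, and 2.58 to 4.09 elsewhere. Neither differed between the diets by the limma test (differences 0.20 and −0.05, adjusted p = 0.687 and 1.0), and 0 of the 4 miRNAs of this list passed.

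Among markers of other cell types, those of blood cells and fibroblasts were mostly higher in curcumin tumors, as miR-206 was. In each other list 1 miRNA or none passed as higher. All 4 blood cell miRNAs listed, such as mmu-miR-142-3p, and 2 of 3 fibroblast miRNAs, mmu-miR-199a-3p and mmu-miR-199a-5p, were higher in curcumin tumors by limma. Of all miRNAs on the arrays 8.34% were. The other fibroblast miRNA, mmu-miR-214-3p, lay at the threshold, with a log2 difference of 5.61 (adjusted p = 0.0501 in limma) and 2 controls at the floor. The log2 of the summed level of the blood cell list was 8.42 to 10.39 in curcumin tumors and 6.40 to 8.16 in controls, and that of the fibroblast list was 8.71 to 9.94 and 6.20 to 8.28. In the epithelial list 1 of 7 miRNAs was higher, mmu-miR-205-5p, and 5 were detected on no array, with summed levels of 7.77 to 10.76 and 1.71 to 7.37. In the endothelial and erythroid lists 0 of 2 and 0 of 2 passed, with summed levels of 7.99 to 9.68 and 7.10 to 8.14 for the endothelial and 5.50 to 8.11 and 5.32 to 9.48 for the erythroid list. Both endothelial miRNAs had higher means in curcumin tumors (log2 differences 0.83 and 0.96, adjusted p = 0.0647 and 0.0758 in limma). Both erythroid miRNAs had lower means there. Of 2 melanocytic miRNAs, mmu-miR-211-5p was lower in curcumin tumors, and the summed level was 2.07 to 9.29 there and 8.27 to 9.73 in controls. The part of these cells in the miR-206 difference was not tested. For comparison, the summed level of the 4 muscle miRNAs was 4.86 to 9.91 in curcumin tumors and 4.54 to 9.25 in controls. The median of the 4 members' own log2 differences was 2.20, of which only that of miR-206 passed the test, beside a median of 0.0 over all miRNAs tested, 594 of which were detected on no array.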

How the data were processed

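Total RNA of 13 flank tumors (7 curcumin, 6 control) was labeled with Cy3 and hybridized in 1 color to Agilent mouse miRNA arrays. Per the file headers, intensity values came from Feature Extraction 10.10.1.1, with background subtracted and spots of a probe combined, and no scaling across arrays. A table of log2 values after quantile normalization was deposited too. These were met within 1.66e-06 when only detected probes of detected miRNAs were summed and 4.39 was added before log2.

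Here the probe signals of each miRNA were summed and quantile normalized, and values at or below 0 were set to the smallest positive value, 0.00765. The diet comparison used limma 3.58.1 in R 4.3.3 (two-sided, Benjamini-Hochberg over 1079 miRNAs) and with exact permutation tests (numpy 2.4.6), and detection with Fisher's exact test (scipy 1.17.1). In simulated arrays, 200 of 1079 miRNAs were shifted by 2 log2 units, and limma called 77.0% of them, with 7 false calls among 161. The simulated noise was normal and independent between miRNAs, and no floor was set. These rates therefore need not hold for the arrays, where 7215 of 14027 values were at or below 0.

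Groups and tumor numbers came from the sample titles. The titles name separate tumors of separate diet groups, and p-values measure the spread between these tumors. Cells were injected in each flank of a mouse, and the titles do not say which mouse a tumor came from. The tests treat the tumors as independent. The members, the lists and the rule for naming miRNAs were chosen with earlier results of these data known. Named were the 4 members, listed miRNAs by counts, with values where they were detected on at least 7 arrays or a result turned on them, and the 3 most similar miRNAs of each member. Correlations were planned over all tumors and were restricted to tumors with all members detected, because the tumors fell into separate sets. For mmu-miR-486-5p no row was matched, and mmu-miR-451a was read as mmu-miR-451. The alternatives were other scalings, floors, probe sums, background corrections, tests, blocks and left-out tumors. For normexp (offset 50) the median spot signals were used, since the arrays' files give no mean. The number of arrays limits the precision. Sequences are from RefSeq (GRCm38.p6), an assembly that differs from that of the array design.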

Additional observations from a re-analysis of the deposited data

Results flagged for a closer look

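In the curcumin group 1 tumor stood far from the others in 3 of the 4 muscle miRNAs. The level of curcumin tumor 7 was −7.03 for mmu-miR-1a-3p, −0.20 for mmu-miR-133a-3p and 0.76 for mmu-miR-133b-3p on the log2 scale. Its gap to the next tumor was 0.957, 0.854 and 0.831 of the range of the group, above the critical value of 0.568 for 7 samples. The 3 values come from 1 tumor and from miRNAs that move together, so they count as 1 observation, and 10 groups of values were examined in this way, of which chance flags about 1 in 20. The 2 control tumors without these miRNAs were not far from the rest by this measure, because they lay close to each other.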

How the results depend on the processing

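The log2 difference of mmu-miR-206-3p kept its direction in all 28 alternatives. It lost the limma threshold after scaling to the 75th percentile of miRNAs detected on all arrays (1.15, adjusted p = 0.0823), without normalization between arrays (1.14, 0.292), with normexp (0.57, 0.0801), with the methods' t-test with unequal variances (1.24, 0.0529), with the slide as a block (1.21, 0.0565) and on slide 1 (1.63) or slide 2 (0.95) alone, and it lay between 1.10 and 1.49 without single tumors. Fewer samples enter the last fits, and for the others the cause was not tested. mmu-miR-1a-3p, mmu-miR-133a-3p and mmu-miR-133b-3p passed in none of their 27 alternatives each (lowest adjusted p = 0.141, 0.0787 and 0.115), always with higher means in curcumin tumors. The correlation of miR-206 with miR-1a passed with the deposited values (r = 0.682, adjusted p = 0.0447) and with the 75th percentile over all miRNAs as scale (r = 0.720, adjusted p = 0.0270), and lay between 0.612 and 0.792 without single tumors, where it passed without curcumin tumor 2 or 5 or control tumor 5 or 6. Those with miR-133a and miR-133b and the within-tumor differences passed in none. The number of miRNAs past the threshold was 171 (90 of them higher in curcumin tumors), with 105 (73 higher) when the 75th percentile over all miRNAs set the scale, 49 (10 higher) without normalization, 285 without adjustment (a setting added after seeing the data) and 103 to 184 without single tumors.

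The sample titles do not name same-numbered tumors of the diets as pairs. The deviations of same-numbered tumors correlated between −0.301 and 0.198, and whether the numbers mark pairs was not tested. With the replicate block 67 miRNAs passed, and the difference of mmu-miR-206-3p was 1.49 (adjusted p = 0.0490), the value without curcumin tumor 7, which has no same-numbered control and so does not bear on this fit.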

Other observations

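The miRNAs whose levels ran most like those of the muscle miRNAs over the 13 tumors were sought among 341 others detected on at least 7 arrays, as a description. For mmu-miR-206-3p they were mmu-miR-21-3p, mmu-miR-22-5p and mmu-miR-29c-3p, with Spearman's rho of 0.880, 0.867 and 0.851, and all were higher in curcumin tumors. They were detected in 5, 3 and 6 of the 6 controls. For mmu-miR-1a-3p, mmu-miR-133a-3p and mmu-miR-133b-3p they were in each case mmu-miR-199b-5p, mmu-miR-219-5p and mmu-miR-21-3p, with lower values of rho between 0.564 and 0.695. The tumors share arrays, diets and the normalization in all these comparisons.

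The tumors without miR-1a and miR-133 did not stand together in the melanocyte miRNA mmu-miR-211-5p. Its log2 level was 5.91 in curcumin tumor 7, 9.12 in control tumor 1 and 9.66 in control tumor 4, within the ranges of 1.54 to 9.27 in curcumin and 8.26 to 9.72 in control tumors.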
